A study of Homo sapiens with 4 samples.

Results

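The tripartite motif (TRIM) genes encode one of the largest families of RING-type ubiquitin ligases. They were examined after knockdown of METTL14 in SK-N-BE(2), a long-established line from a human neuroblastoma whose MYCN gene is amplified. The family was taken whole by name: every protein-coding gene of the deposited table whose symbol is TRIM followed by a number, with or without a letter, was included, with 1 exception that was set aside. This gave 73 genes of 60671 gene IDs. The family had been selected after results of the same contrast were known, so the counts, fold changes and p-values below describe its members and are not an independent test of them. RNA was sequenced from cells with a control short hairpin RNA (shNC) and from cells with a hairpin against METTL14 (shMETTL14), in 2 libraries each. Both groups were the same line, and the study's methods describe hairpins delivered by the lentiviral vector pLKO.1. The labels do not say which of the published METTL14 hairpins was sequenced, and nothing says that the libraries of a group came from separate cultures, so p-values measure only the spread between these samples, which may be technical.

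A typical TRIM protein carries a RING finger that recruits a ubiquitin-charged E2 enzyme, 1 or more B-boxes and a coiled coil through which it dimerises, and then a variable carboxy-terminal domain that selects the substrate. That last domain sorts the family into classes, from the PRY-SPRY proteins, many of which act in innate defence against viruses, to the PHD-bromodomain proteins of chromatin and the NHL-repeat proteins that act in neurons and stem cells. A few members lack the RING. METTL14 is the RNA-binding partner of METTL3 in the complex that places N6-methyladenosine (m6A) on messenger RNA.

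Between 18925786 and 19886214 reads per library had been counted in genes. METTL14 itself, the check on the labels, had 753 and 754 counts under shNC and fell to 303 and 321 under shMETTL14. Its level was then 41.7% of control, from 38.6 ± 1.13 to 16.1 ± 0.851 CPM (TMM-scaled counts relative to library size, SD, n = 2 each), or -1.26 on the log2 scale (SE 0.0832, edgeR adjusted p 3.6e-11). All 10 neuroblastoma markers were detected, with a summed level between 4990 and 5270 CPM. Most of that sum was MYCN, with means of 2620 CPM under shNC and 3170 CPM under shMETTL14. Of the 10 markers, 2 were called higher, MYCN among them, and 7 lower under shMETTL14. The part of these markers in the TRIM values was not tested. The 6 fibroblast markers summed to between 305 and 335 CPM, mostly LUM, with COL1A2 (1.83) called higher and PDGFRA (-2.13), COL3A1 (-0.78) and COL1A1 (-0.48) lower, and their part in the TRIM values was not tested. Those values of single markers were chosen after they were seen, and COL1A2 passed the count filter only through the shMETTL14 libraries. Beside these tallies, 27.2% of all tested genes were called higher and 25.3% lower. The sum was small for the 6 immune markers, between 1.87 and 2.61 CPM. In bulk RNA, fewer cells of a type and less RNA per cell cannot be told apart.

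In sum the TRIM genes kept a like level in both groups, and single members moved in both directions. Their summed level was 1590 and 1560 CPM in the shNC libraries and 1590 and 1610 CPM in the shMETTL14 libraries, or between 0.156% and 0.161% of all counts in genes. Of the 73 genes, 44 were expressed highly enough to test. At an edgeR adjusted p under 0.05, 27 of these were called (61.4%), 12 higher and 15 lower, where 52.5% of all 16309 tested genes were called, 27.2% higher and 25.3% lower. Among tested protein-coding genes of any kind the share called was 58.5%. A change of at least 1.5-fold was met by 9 members, 2 higher and 7 lower, against 18.8% of all tested genes. A change of at least 2-fold was met by 2 members, TRIM67 and TRIM29, against 8.79% of all. TRIM29 passed the count filter only through the shNC libraries. The groups did not overlap in 38 members, against 75.5% of all tested genes. Since the contrast was known when the family was chosen, nothing is read from these shares.

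The median log2 fold change over the tested members was -0.01, and -0.001 over all tested genes. The median absolute change was 0.33 for members and 0.30 for all genes. Among called members, 18 of 27 (66.7%) changed by under 1.5-fold, as did 64.1% of all called genes. Grouped by domain class, most classes held members on both sides of 0.

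**Figure D1:**
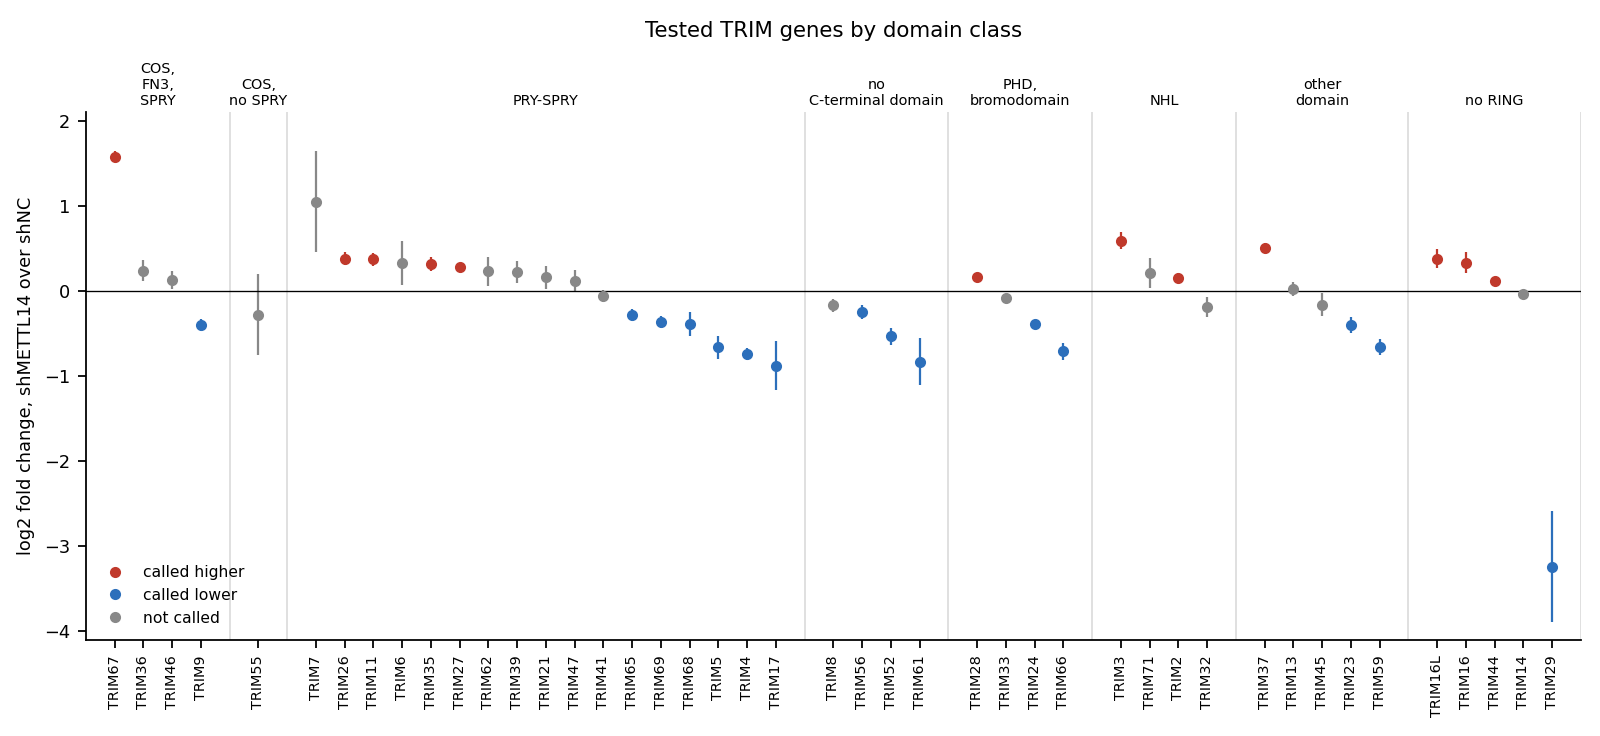
Log2 fold change of shMETTL14 over shNC (vertical axis) for the 44 tested TRIM genes, grouped by domain class, with bars of 1 standard error and colours for the call at an edgeR adjusted p under 0.05. TRIM67 at 1.58 and TRIM29 at -3.24 lie outside the range from -0.88 to 1.05 that holds the other members.

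Levels can be compared between genes only per length, here as CPM per kilobase of annotated exon. On that scale chromatin proteins led the family. TRIM28 was highest in shNC cells at 33.3 ± 0.45, followed by TRIM24 at 26.0 ± 0.467 and TRIM14 at 14.5 ± 0.273 CPM per kilobase (SD, n = 2 each). TRIM37 at 11.7 ± 0.473, TRIM33 at 10.9 ± 0.293, TRIM27 at 10.5 ± 0.207 and TRIM44 at 10.3 ± 0.348 came next, and the last 3 of these differed by less than the sum of their SDs. The 5 highest members held 41.0% and the 10 highest 61.0% of the family's level per length in shNC cells.

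At the other end, 29 members were too low to test. No read was counted for 11 of them in any library, among them TRIM15, TRIM34, TRIM40, TRIM43, TRIM60 and TRIM77, which allows up to 3 counts per library. Another 15 had at most 3 counts in a library, including TRIM22, an interferon-induced antiviral gene, and the muscle genes TRIM54 and TRIM63. The remaining 3 were TRIM38, TRIM73 and TRIM74, with at most 10 counts. Many of the genes without counts or nearly so are near-identical copies in the TRIM49, TRIM51 and TRIM64 cluster of chromosome 11. Reads that align to several copies may have been left uncounted there. TRIM34 shares 83.0% of its exon bases with other annotated exons on its strand, so its reads may have been left uncounted too.

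The clearest single change was in the class with a COS box, a fibronectin domain and a PRY-SPRY domain, whose members bind microtubules and serve neurons. TRIM67 (ENSG00000119283, chromosome 1, 231162112 to 231221556, plus strand) is the closest relative of TRIM9, and both bind the netrin receptor DCC. It had 747 and 634 counts under shNC and 1970 and 2143 under shMETTL14. Every shMETTL14 value lay far above both controls. The level went from 35.3 ± 3.09 to 106 ± 7.59 CPM (SD, n = 2 each), which is 300% of control or 1.58 on the log2 scale (SE 0.0638, edgeR adjusted p 1.3e-14). With 1 library left out it lay between 1.5 and 1.67, and 99.0% of all tested genes had a lower log2 fold change.

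TRIM9 (chromosome 14, 50975262 to 51096061, minus strand), the brain-enriched relative, went the other way. Its counts were 954 and 892 under shNC against 733 and 653 under shMETTL14, without overlap. The mean fell from 47.2 ± 0.906 to 35.7 ± 2.48 CPM (SD, n = 2 each), or -0.40 on the log2 scale (SE 0.0695, adjusted p 4.3e-05). The order of the pair was turned around. Per length, TRIM67 stood at 0.751 and 0.682 times TRIM9 in the shNC libraries and at 2.58 and 3.15 times in the shMETTL14 libraries. TRIM46, which organises microtubules at the axon's initial segment, and TRIM36 were not called, at log2 fold changes of 0.13 and 0.24. In the related muscle class only TRIM55 could be tested, with 15 and 12 against 10 and 12 counts, and it was not called (-0.28, SE 0.477).

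**Figure D2:**
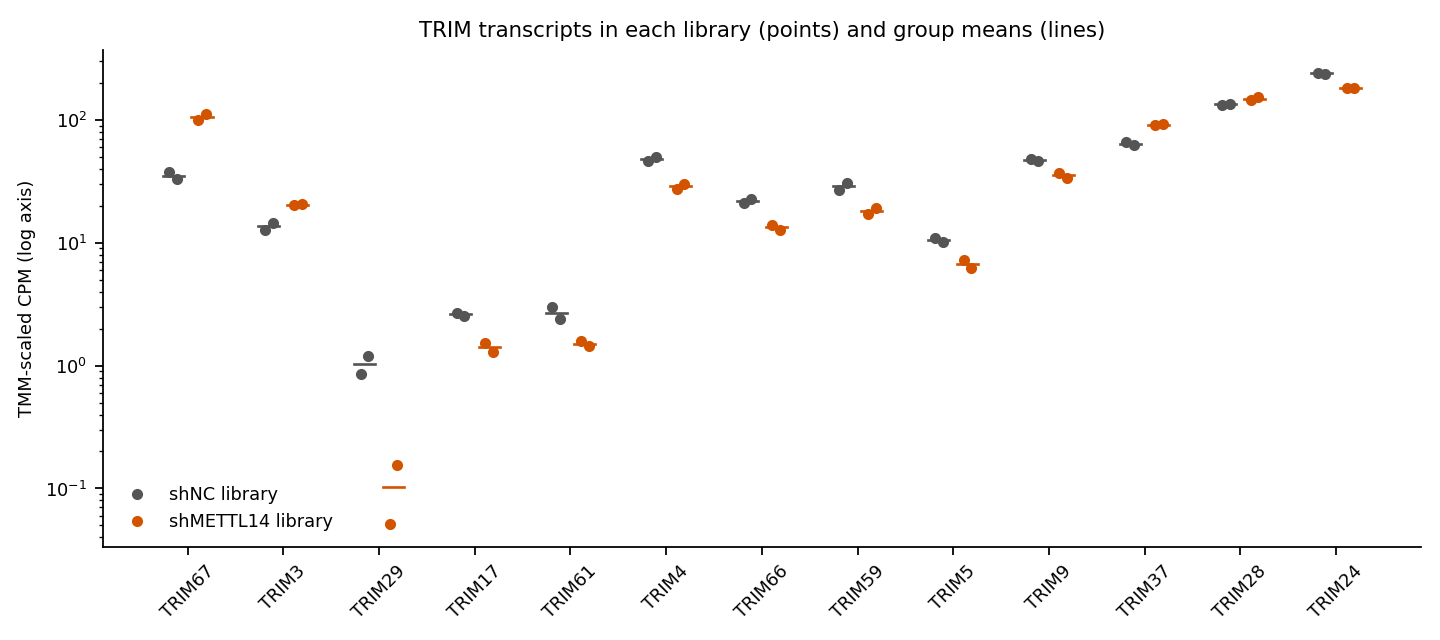
TMM-scaled CPM in each library on a log axis (points, with group means as lines) for 13 TRIM genes, shNC in grey and shMETTL14 in orange. TRIM67 rose above TRIM9 under shMETTL14. All 13 were picked from the called members, so the lack of overlap between the 2 groups follows largely from the choice. Of all tested genes, 75.5% had groups without overlap.

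The NHL-repeat class, 4 genes all of which were expressed, moved little apart from TRIM3. TRIM3 (chromosome 11, 6448613 to 6474459, minus strand) is a brain-expressed ligase of postsynaptic proteins. It had 253 and 279 counts under shNC and 398 in each shMETTL14 library. The level rose from 13.6 ± 1.33 to 20.5 ± 0.25 CPM (SD, n = 2 each), which is 0.59 on the log2 scale (SE 0.0993, adjusted p 3.3e-05). TRIM2, its relative that ubiquitinates the neurofilament light chain, was the most abundant of the class, with 1113 and 994 against 1165 and 1162 counts. Its difference was small (log2 fold change 0.15, adjusted p 0.0321) and the call was lost on leaving out any of 3 libraries, with adjusted p-values of 0.0746 without shMETTL14 library 1, 0.119 without shMETTL14 library 2 and 0.205 without shNC library 2. It was also lost under upper quartile scaling (0.09, adjusted p 0.229), library size alone (0.11, adjusted p 0.129) and a filter of 10 counts in every library (0.14, adjusted p 0.0513). Per length, TRIM3 stood at 0.317 and 0.392 times TRIM2 under shNC and at 0.477 and 0.478 times under shMETTL14. TRIM32 (-0.19) and TRIM71, the stem cell gene LIN41 that let-7 represses (0.21), were not called, and their groups overlapped, although TRIM32 was called lower without shMETTL14 library 2 (-0.36, adjusted p 0.0195).

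The PHD-bromodomain proteins, also called transcription intermediary factors 1, are histone readers, and they were split. TRIM28, or KAP1, is the corepressor that KRAB zinc finger proteins bring to chromatin and the most abundant member per length. It had 2651 and 2596 counts under shNC and 2836 and 2973 under shMETTL14, a small rise from 134 ± 1.81 to 150.0 ± 6.81 CPM (SD, n = 2 each). The log2 fold change was 0.16 (SE 0.0449, adjusted p 0.00577), which lost its call without shMETTL14 library 2 (0.12, adjusted p 0.115) and under upper quartile scaling (0.09, adjusted p 0.103). TRIM24, a nuclear receptor cofactor and ligase of p53, fell in both libraries, from 4848 and 4541 to 3561 and 3549 counts. Its log2 fold change was -0.39 (SE 0.0404, adjusted p 4.2e-08), a level of 76.2% of control. The 2 genes thus moved apart, and TRIM28 over TRIM24 per length went from 1.25 and 1.31 to 1.82 and 1.92.

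TRIM66, the testis-enriched member of the class (chromosome 11, 8612037 to 8682694, minus strand), fell further. It had 420 and 437 counts under shNC against 276 and 246 under shMETTL14, or 21.9 ± 1.24 against 13.4 ± 0.929 CPM (SD, n = 2 each). The log2 fold change was -0.71 (SE 0.0979, adjusted p 2.8e-06). TRIM33, which acts on SMAD4, was not called (-0.08), although upper quartile scaling (-0.15, adjusted p 0.0145) and library size alone (-0.12, adjusted p 0.0362) called it lower.

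The proteins that TRIM28 assembles with were read from a list of 7 genes, all of them tested. The heterochromatin protein genes CBX1 and CBX5 moved apart, at 0.24 and -0.28, and CBX3 was not called (-0.04). The histone methyltransferase SETDB1 fell by 0.41 and its stabilising partner ATF7IP fell by 0.56 on the log2 scale. CHD3, the remodeler of the NuRD complex, fell by 0.28 and MORC2 rose by 0.44. In counts, 2 were higher and 4 lower, with a median of -0.28. Among all tested genes 27.2% were called higher and 25.3% lower, and nothing particular to the list is read from this.

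The PRY-SPRY class was the largest, with 17 tested genes of 39. Of these, 4 were called higher and 6 lower, beside 27.2% higher and 25.3% lower among all tested genes. The median log2 fold change of the class was 0.16. The most abundant was TRIM27, first known as the RET finger protein, with 1650 and 1630 counts under shNC and 1990 and 1954 under shMETTL14. It rose by 0.28 (SE 0.0468, adjusted p 3.8e-05). TRIM26, TRIM11 and TRIM35 rose by 0.38, 0.37 and 0.32.

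Among those that fell, TRIM4, a ligase of the viral RNA sensor RIG-I (chromosome 7, 99876958 to 99919600, minus strand), was the most abundant. Its counts were 922 and 955 under shNC against 536 and 582 under shMETTL14, or 48.1 ± 2.56 against 28.8 ± 2.03 CPM (SD, n = 2 each). The log2 fold change was -0.74 (SE 0.0743, adjusted p 2.9e-08). TRIM5, the retroviral restriction factor (chromosome 11, 5663557 to 5938619, minus strand), had 219 and 195 against 141 and 120 counts, or -0.66 on the log2 scale (SE 0.135, adjusted p 3.1e-04). TRIM17 (chromosome 1, 228407940 to 228416861, minus strand), a gene of neuronal death, was rarer, with 53 and 49 against 30 and 25 counts. Its log2 fold change of -0.88 (SE 0.286, adjusted p 0.0132) kept its sign but lost the call without shMETTL14 library 2 (-0.76, adjusted p 0.0816) and without shNC library 1 (-0.85, adjusted p 0.0618). TRIM69, TRIM68 and TRIM65 fell by 0.37, 0.39 and 0.28, where TRIM68 lost its call without shMETTL14 library 2 (-0.21, adjusted p 0.288) and without shNC library 1 (-0.31, adjusted p 0.137).

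The other 7 of the class were not called. TRIM7, a binder of glycogenin, had the largest of these differences (1.05, SE 0.597) on only 12 and 2 counts under shNC and 11 and 18 under shMETTL14. Without shNC library 1 the difference was 2.76. The only control then held 2 counts, so TRIM7 passed the count filter there only through the shMETTL14 libraries. That value is given as description only. TRIM6, TRIM62, TRIM39, TRIM21, TRIM47 and TRIM41 lay between -0.06 and 0.33.

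Members with a described role in antiviral signalling cut across these classes. Of 9 listed, 6 could be tested, 1 was called higher (TRIM26) and 3 lower (TRIM5, TRIM56 and TRIM65), with a median of -0.15, where 27.2% of all tested genes were called higher and 25.3% lower. TRIM4 (-0.74), described above, was not on this list and is not counted here. TRIM56, which acts on the cytosolic DNA sensing pathway, had 556 and 542 against 482 and 435 counts, a difference of -0.25 (adjusted p 0.0141) that lost its call without shMETTL14 library 2 (-0.18, adjusted p 0.163) and without shNC library 2 (-0.24, adjusted p 0.0582). TRIM65 activates the RNA sensor MDA5. TRIM14, an adaptor at MAVS, was not called, with 1563 and 1542 against 1452 and 1539 counts (-0.04, SE 0.052). TRIM21, the cytosolic antibody receptor, had a log2 fold change of 0.16 and was not called.

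Several TRIM genes are induced by interferon, through response elements near their start. The letters GAAANNGAA, searched on both strands of the 250 bases before each start (RefSeq, GRCh38.p14, 57 member genes matched), were found in 10 of 76 member windows, or 13.2%, against 6.9% of all 35116 windows. Matches from 5 of these genes, picked for their place in antiviral defence or for their values, are shown with 10 bases on each side, 5′ to 3′ on the gene's strand, with the match in capitals. All 5 are matches on the opposite strand, so the capitals read as the reverse complement of the searched letters, and the TRIM26 one is the first of 2 that overlap.
TRIM5, chr11:5685082-5685110, minus strand: tagtttatctTTCACTTTCctgccctgag
TRIM14, chr9:98119229-98119257, minus strand: cggccgaggtTTCGGTTTCccttgggagc
TRIM26, chr6:30213581-30213609, minus strand: cccgcctgatTTCAGTTTCcatttcgctg
TRIM34, chr11:5624902-5624930, plus strand: ccccaaaaatTTCACTTTCatttctcagg
TRIM69, chr15:44736457-44736485, plus strand: taatgagggtTTCTCTTTCtcttaagcaa
TRIM5 and TRIM34 share the 9 bases of the match. TRIM5 was expressed and fell, while TRIM34 had no count. However, 83.0% of the exon bases of TRIM34 are shared with other annotated exons on its strand. Its reads may have been left uncounted, so nothing is read from this contrast. In TRIM5 the match ends 18 bases before the start, and in TRIM14 17 bases before it. Of the 5 genes, TRIM5 and TRIM69 fell, TRIM26 rose, TRIM14 was not called and TRIM34 was not tested. They were picked partly for their values, so nothing is read from their directions. Of the other genes with a match, TRIM2, TRIM16 and TRIM44 were called higher, by calls that were not stable. TRIM64C and TRIM75 were not tested. A match is a description of the letters and not a bound site. Other motifs were no more common in member windows than in all windows, with the E-box CACGTG in 2.6% against 6.3%, the ETS letters CCGGAAG in 7.9% against 8.5% and the YY1 letters CCATNTT in 10.5% against 11.6%.

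Interferon-stimulated genes outside the family were called in both directions. Of 14 listed, 9 could be tested, with 3 higher and 4 lower, beside 27.2% higher and 25.3% lower among all tested genes. The summed level of the 14 was 134 CPM in each shNC library against 106 and 109 CPM under shMETTL14. Most of that sum was OAS3, with means of 79.6 against 66.6 CPM, and OAS1, with 28.8 against 17.1 CPM. The sum thus says little of the other genes. OAS1, the sensor of double-stranded RNA, had 594 and 532 against 334 and 329 counts (-0.75, adjusted p 2.0e-07), and OAS3 fell by 0.26. ISG15 (1.29), RIGI (0.68) and IRF7 (0.57) were called higher on at most 82 counts per library. ISG15 passed the count filter only through the shMETTL14 libraries. MX1, a classical interferon-induced gene, had at most 9 counts. The part of interferon signalling in the TRIM values was not tested.

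Among proteins that end after the coiled coil, 3 of the 4 tested genes were called, all 3 lower, where 25.3% of all tested genes were called lower. TRIM8, an inhibitor of SOCS1 and the most abundant of them, had 931 and 776 counts under shNC and 770 and 734 under shMETTL14, close to the threshold (-0.17, SE 0.0735, adjusted p 0.0542). It was called lower without shNC library 2 (-0.27, adjusted p 0.00695), with a block on replicate number (-0.17, adjusted p 0.03) and under each of the other scalings (adjusted p 0.0465 by RLE, 0.00913 by upper quartile and 0.0168 by library size alone). TRIM61 (chromosome 4, 164954446 to 164977668, minus strand) shares 33.2% of its exon bases with other annotated exons on its strand. TRIM61 had 60 and 46 against 31 and 28 counts. Its log2 fold change was -0.83 (SE 0.281, adjusted p 0.0168), and the call was lost without shNC library 1 (-0.66, adjusted p 0.151) and without shMETTL14 library 2 (-0.76, adjusted p 0.072). TRIM52 fell from 398 and 437 to 275 and 300 counts (-0.53, SE 0.10, adjusted p 1.3e-04). Of its exon bases, 28.5% lie opposite another gene, the noncoding CTC-338M12.4, which fell as well, from 187 and 166 to 98 and 81 counts (-0.97, adjusted p 1.8e-05). Because the strand setting of the counting is not given in the sources used here, reads of this overlap cannot be told apart. TRIM52-AS1, which starts beyond the end of TRIM52 and shares no base with it, had 136 and 112 against 184 and 159 counts (0.48, adjusted p 0.00886).

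Among the 5 members with other terminal domains, 1 rose and 2 fell, beside 27.2% higher and 25.3% lower among all tested genes. TRIM37, a MATH-domain ligase of centrosomes and peroxisomes whose gene lies on chromosome 17, was the most abundant and rose from 1317 and 1195 to 1771 and 1778 counts. The mean went from 64.2 ± 2.59 to 91.4 ± 1.37 CPM (SD, n = 2 each), or 0.51 on the log2 scale (SE 0.051, adjusted p 2.8e-08). Of the exon bases of TRIM37, 11.1% lie opposite other annotated exons. TRIM59, a membrane-anchored ligase (chromosome 3, 160432445 to 160485773, minus strand), fell from 535 and 592 to 338 and 369 counts. Its log2 fold change was -0.66 (SE 0.0927, adjusted p 3.1e-06), with 28.9 ± 2.88 against 18.2 ± 1.35 CPM (SD, n = 2 each). Of the exon bases of TRIM59, 14.5% are shared with other annotated exons on its strand and 19.8% lie opposite other exons. Among the overlapping genes SMC4 fell by 0.11. TRIM23, which ends in an ARF-like GTPase domain, fell by 0.40 (adjusted p 9.2e-04). TRIM13 (0.02) and TRIM45 (-0.16) were not called.

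The members without a RING held the largest fall and several small rises. TRIM29, or ATDC, marks squamous and basal epithelium (chromosome 11, 120111275 to 120185529, minus strand). It was barely expressed, with 17 and 23 counts under shNC and 1 and 3 under shMETTL14. The summed 4 counts were 10.1% of the 40 in control after scaling, with an exact 95% interval from 2.62% to 27.8% that covers counting error only. The fitted log2 fold change was -3.24 (SE 0.649, adjusted p 2.4e-04), a value that depends on the prior count. TRIM29 passed the count filter only through the shNC libraries, where it is higher, so this p-value is given as description only. The value moved to -2.66 without shMETTL14 library 1 and to -4.16 without shMETTL14 library 2. The 6 epithelial markers, of which 2 could be tested, were also lower, going from 6.12 and 5.59 to 3.78 and 2.91 CPM in sum. Most of that sum was EPCAM, while KRT5 was at 0 in every library and KRT14 and CDH1 had at most 1 count. Their part in the TRIM29 value was not tested.

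TRIM16, a RING-less protein with ligase activity, and its shorter relative TRIM16L rose by 0.33 and 0.38. Their longest coding sequences have 1692 and 1044 bases. Where the 2 genes are alike, reads may have been split between them, and neither call was stable. Of the exon bases of TRIM16, 23.5% are shared with other annotated exons on its strand. TRIM16 lost its call without shMETTL14 library 2 (0.15, adjusted p 0.42) and without shNC library 2 (0.29, adjusted p 0.109), and also under upper quartile scaling (0.27, adjusted p 0.0769) and library size alone (0.29, adjusted p 0.054). TRIM16L lost its call without shNC library 1 (0.25, adjusted p 0.119). TRIM44, which carries a zinc finger otherwise found in deubiquitinases, rose by 0.12 from 2746 and 2515 to 2858 and 2823 counts. That call was lost without shMETTL14 library 1 (0.13, adjusted p 0.081), without shMETTL14 library 2 (0.13, adjusted p 0.0891) and without shNC library 2 (0.09, adjusted p 0.135), and also under upper quartile scaling (0.05, adjusted p 0.324) and library size alone (0.08, adjusted p 0.156).

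**Figure D3:**
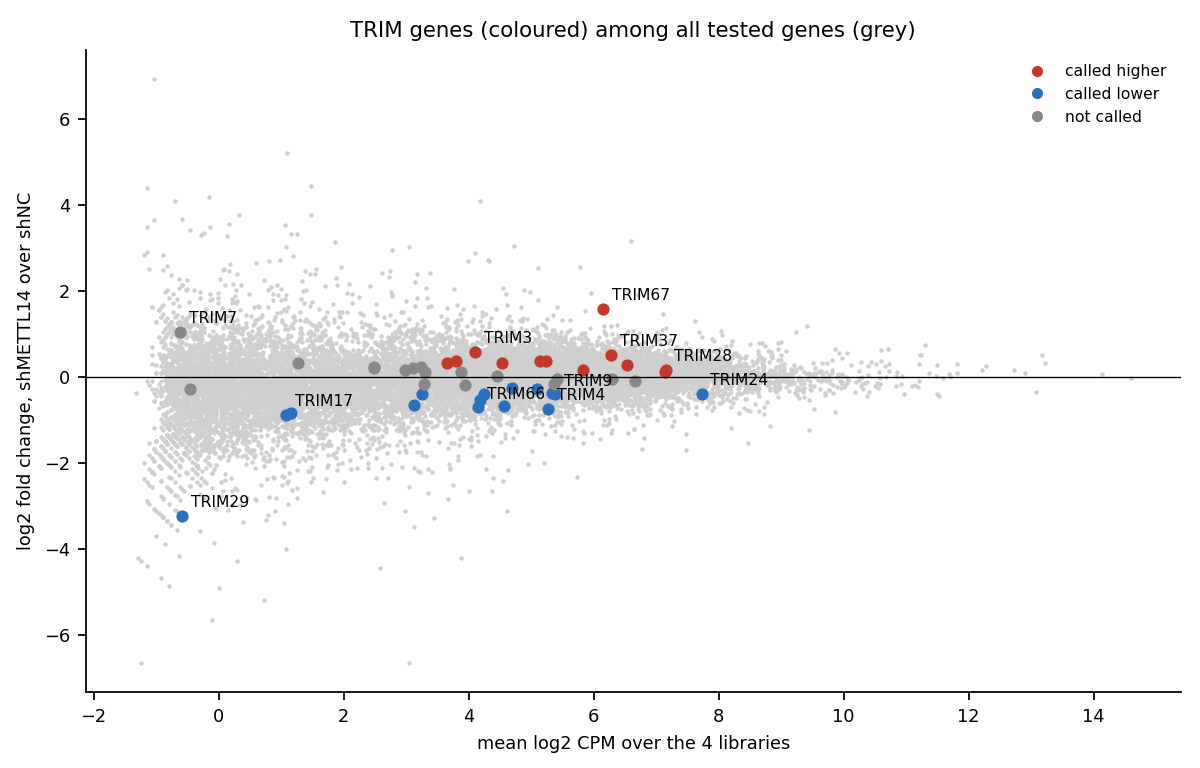
Log2 fold change (vertical axis) against mean log2 CPM over the 4 libraries (horizontal axis) for all 16309 tested genes except 1 that is not reported (light grey) and for the tested TRIM genes (coloured by call). TRIM67 stands at the upper edge of the genes at its level, while the other abundant members lie within the cloud.

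Several members sit side by side in the genome, and 3 such groups were followed as ratios. TRIM11 and TRIM17 are 1099 bases apart on chromosome 1 and on the same strand, yet TRIM11 rose and TRIM17 fell. Per length, TRIM11 stood at 5.27 and 5.23 times TRIM17 under shNC and at 11.8 and 13.3 times under shMETTL14. TRIM47 and TRIM65 lie 1759 bases apart on chromosome 17, and TRIM65 over TRIM47 went from 2.97 and 3.43 to 2.49 and 2.32. Of the exon bases of TRIM47, 51.5% lie opposite other annotated exons, and the strand setting is not known, so this ratio may be affected. In the group on chromosome 5, TRIM41 was not called (-0.06) while TRIM52, 18607 bases away, fell, and their ratio went from 1.14 and 0.949 to 1.52 and 1.37. These ratios are within a library and need no scaling between libraries, but the differences between ratios were not tested.

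Some genes of the family carry other names. Of 9 listed, 5 could be tested and 3 fell, where 25.3% of all tested genes were called lower. MID1, the microtubule-bound ligase of Opitz syndrome, had 651 and 603 against 359 and 388 counts (-0.74, SE 0.084, adjusted p 1.8e-07). CMYA5 (-1.19) and BSPRY (-1.59) fell on at most 29 counts per library. BSPRY passed the count filter only through the shNC libraries, and CMYA5 was near its threshold under shMETTL14. PML, which builds nuclear bodies, was not called (0.05), with overlapping groups, and neither was RNF207 (-0.12).

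Genes of E2 enzymes, which carry ubiquitin to ligases, and of their cofactors were then read from a list of 12, all tested. Of these 7 rose and 2 fell, beside 27.2% higher and 25.3% lower among all tested genes, and nothing particular to the list is read from this. The median log2 fold change was 0.27, and their sum went from 1220 and 1230 to 1420 and 1440 CPM. UBE2N, which builds lysine-63 chains with several TRIM ligases, had 3166 and 3090 counts under shNC and 4833 and 4787 under shMETTL14. It rose by 0.63 (SE 0.0403, adjusted p 2.3e-11). Of the listed cofactors, UBE2V2 rose by 0.25, while the rarer UBE2V1 was not called, with a mean of 4.35 CPM in both groups. UBE2D1, one of the general E2 enzymes, rose the most, from 639 and 618 to 1078 and 1111 counts (0.81, adjusted p 9.5e-10). The more abundant UBE2D3 was not called (-0.01), and UBE2D2 fell by 0.12. UBE2W, which starts chains for TRIM5 and TRIM21, had a mean of 24.7 CPM in both groups. UBE2L3 rose by 0.55, UBE2D4 by 0.65, UBE2E2 by 0.33 and UBE2E3 by 0.28, and UBE2E1 fell by 0.15.

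**Figure D4:**
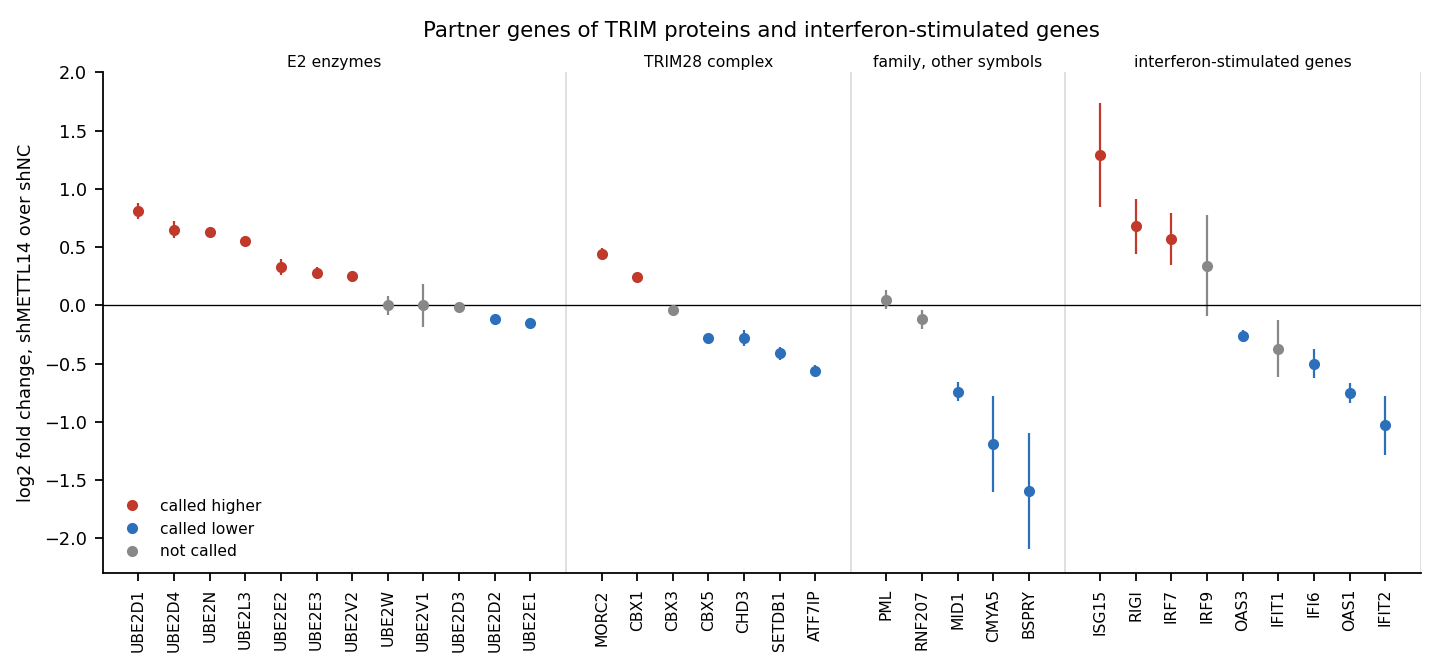
Log2 fold change of shMETTL14 over shNC with bars of 1 standard error for tested genes of 4 lists, the E2 enzymes, the TRIM28 complex, family members with other symbols and interferon-stimulated genes. The E2 list runs from -0.15 to 0.81 and the TRIM28 list from -0.56 to 0.44.

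The letters GGACT, a common form of the m6A consensus, were counted in the longest coding transcript of each tested member. Their density was close to that of other genes, with a median of 0.983 per kilobase over members and 0.939 over 12800 tested protein-coding genes. It was 0.935 in members called higher, 1.03 in those called lower and 0.98 in those not called. No measure of m6A in these libraries was used here.

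How firmly members can be called varied with their overlap and with the test. Of the 44 tested members, 20 share exon bases with another annotated gene, 10 of them over at least 10% of their exon bases. Among the 34 with less overlap, 22 were called, 10 higher and 12 lower, where 52.5% of all tested genes were called. DESeq2 called 17 of the members, 7 higher and 10 lower, and left out TRIM2, TRIM16, TRIM16L, TRIM17, TRIM35, TRIM44, TRIM56, TRIM61, TRIM65 and TRIM68. The call of 16 members held in every fit in which they were tested, among them TRIM67, TRIM3, TRIM37, TRIM4, TRIM66, TRIM59, TRIM5 and TRIM24.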

How the data were processed

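Paired-end libraries had been read on an Illumina NovaSeq, and the table the authors deposited holds unnormalized counts by Ensembl gene for 2 shNC and 2 shMETTL14 libraries. The submitters' processing notes name HISAT2 2.1.0, StringTie 1.3.6, HTSeq 0.13.5 and edgeR with GRCh38, without giving roles. The strand setting and the annotation release are not given in the sources used here. Lines that named no gene held 19.1% to 19.9% of counts and were left out, and 0 other sample columns were present. Of 60671 IDs, 42020 had a symbol and 58453 were found in GENCODE 29 (GRCh38), the source of coordinates and exon lengths. The TRIM members, domain classes and lists were chosen with earlier results of these data known, and 1 gene with such a symbol and 1 gene of the interferon list are not reported here.

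The counts were fitted in edgeR 4.0.16 (R 4.3.3) with TMM scaling and the group as the only term, and quasi-likelihood F-tests were run on 16309 genes that passed filterByExpr (minimum count 10, minimum total 15). Benjamini-Hochberg adjustment covered all of these, and calls needed an adjusted p under 0.05. Values are TMM-scaled CPM, fold changes are log2 of shMETTL14 over shNC, and each SE was derived from F. With 2 libraries per group the smallest two-sided p of an exact permutation test is 0.333, so calls rest on the variance shared across genes. The mean chi-square per gene was 2.78 and 2.27 within groups, above sampling noise, and at least 33.5 between them, and the biological coefficient of variation was 3.45%. Members with values in each library are METTL14, called members with a log2 change of at least 0.58 in size, and the most abundant member of each class. The alternatives were other scalings, filters, DESeq2 1.42.0, a replicate term and leaving out each library. Intervals cover counting error only.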

Additional observations from a re-analysis of the deposited data

How the results depend on the processing

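The METTL14 log2 fold change lay between -1.33 and -1.21 in all fits, always called. The number of TRIM members called lay between 25 and 28 under the other scalings and filters and between 20 and 25 with 1 library left out, and was 17 with DESeq2. With DESeq2 the members called higher fell from 12 to 7, and over all genes the calls fell from 8561 to 5556. Upper quartile scaling, which shifted the median log2 change of all genes by -0.07, called 8 members higher and 17 lower. A required change of 1.5-fold left 9 members, 2 higher and 7 lower, and 2-fold left 2, 1 in each direction. The members' median of -0.01 became -0.0792 under upper quartile scaling and -0.0567 with library size alone, and lay between -0.0079 and 0.021 with 1 library left out, turning positive without shMETTL14 library 1 (0.021) and without shNC library 2 (0.0054). TRIM13 turned to -0.0463 under upper quartile scaling and -0.0238 with library size alone, and TRIM14 lay between -0.091 and 0.0129 with 1 library left out, above 0 without shMETTL14 library 1, none of them called. TRIM29 could not be tested where at least 10 counts in every library were asked for. The labels number the replicates alike in both groups. Deviations from the group means did not correlate across genes between same-numbered libraries (Pearson's r -0.0018). Counting noise in these deviations could hide a pairing, so the value cannot say whether same-numbered libraries were prepared together. A fit with the replicate number as a block called 28 members, 12 higher and 16 lower. The cause of these shifts was not tested. With 2 libraries per group and a floor of 3 counts, members below about 10 counts could not be judged.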
